A study of Mus musculus with 2 samples.

Results

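This account covers 792 stretches of the mouse genome that were densely covered by CpG measurements and heavily methylated in wild-type fibroblasts, and describes how much methylation each kept when DNA methyltransferase 1 (DNMT1) was impaired. The stretches, called tiles here, were chosen by a rule on measured values: the CpGs of the methylation table were binned into 1 kb tiles, and an autosomal tile was a member when it held 20 or more measured CpGs and their median methylation in the wild-type library was 80% or more. Members were 792 of the 13594 autosomal tiles with 20 or more CpGs (5.83%), and of 347615 tiles with any measured CpG on all chromosomes. The Dnmt1+/+ level therefore chose the members, and the fall in Dnmt1-/- is given as a description.

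Mouse embryonic fibroblasts (MEFs) were compared between 2 genotypes, which the labels call Dnmt1+/+ and Dnmt1-/-, by reduced-representation bisulfite sequencing (RRBS), in which restriction enzymes cut the DNA and the fragments kept are bisulfite-treated, so that unmethylated cytosines are read as T. The cells called Dnmt1-/- carried a hypomorphic Dnmt1 allele on both chromosomes, and the fibroblasts of both genotypes also lacked trp53. There was 1 library per genotype, so no error between cultures or embryos could be computed, and a difference between the libraries cannot be told apart from a difference between cultures. Age and sex of the embryos are not given in the sources used here, and a table of CpG methylation holds no value that checks the Dnmt1 allele or the fibroblast identity.

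DNMT1 copies methylation onto the new strand after replication, at CpGs that are methylated on the old strand. In mammalian somatic cells most CpGs are methylated, above all in gene bodies and in transposon-derived repeats, whereas dense clusters of CpGs, the CpG islands, at gene starts mostly stay free of it. Dense CpGs that are nevertheless methylated are therefore found mainly inside coding sequence, in repeats and at the starts of genes that are silenced by methylation, such as germline genes.

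The deposited table listed 1790826 CpGs, each with 10 or more calls in both libraries, with 74636195 calls in Dnmt1+/+ and 78401157 in Dnmt1-/-. Member tiles held 20172 of these CpGs, and the median depth of a member CpG was 34 calls in Dnmt1+/+ and 35 in Dnmt1-/-. CpGs inside CCGG and TCGA, the sites that the restriction enzymes MspI and TaqI recognise and that are called cut sites here, made up 5419 of them (26.9%). Those read higher than their neighbours in Dnmt1-/-, with means of 65.6% over all cut-site CpGs and 40.1% over all remaining CpGs of the members. In the 280 tiles whose remaining CpGs averaged 50% or more the means over tiles were 74.2% and 63.0%, and in the 200 tiles at 20% or less, which were grouped by the lower of these values, they were 56.0% and 12.1%. The level of a tile is taken here as the mean over its CpGs outside both sites, called other CpGs (14753 in all, at least 8 a tile). The level over all CpGs is given for the members as a whole, by gene position and for the lowest tiles.

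To show what such tiles look like, a stretch of 200 bases was taken from the 3 gene tiles with coding bases that kept most methylation in Dnmt1-/- and from the 3 that kept least, at the place with most measured other CpGs and no untranslated region. All lie wholly in coding exons and are written 5′ to 3′ on the + strand of NCBIM37 (mm9), with the measured other CpGs in capitals. The gene runs on the opposite strand for Odz3, Tubb5 and Elfn2. The first 3 kept most: chr17:5342025-5342224 in Arid1b, chr8:49321274-49321473 in Odz3 and chr12:109556793-109556992 in Hhipl1. The last 3 kept least: chr17:35972476-35972675 in Tubb5, chr17:34048667-34048866 in Daxx and chr15:78504207-78504406 in Elfn2.
Arid1b: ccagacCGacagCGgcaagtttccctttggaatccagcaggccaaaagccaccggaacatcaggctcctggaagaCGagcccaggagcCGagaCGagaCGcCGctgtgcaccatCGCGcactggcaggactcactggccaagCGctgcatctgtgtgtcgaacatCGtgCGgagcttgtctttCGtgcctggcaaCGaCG
Odz3: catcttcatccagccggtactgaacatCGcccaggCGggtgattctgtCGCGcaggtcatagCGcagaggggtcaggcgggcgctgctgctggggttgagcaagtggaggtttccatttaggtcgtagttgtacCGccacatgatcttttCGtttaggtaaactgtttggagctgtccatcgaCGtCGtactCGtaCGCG
Hhipl1: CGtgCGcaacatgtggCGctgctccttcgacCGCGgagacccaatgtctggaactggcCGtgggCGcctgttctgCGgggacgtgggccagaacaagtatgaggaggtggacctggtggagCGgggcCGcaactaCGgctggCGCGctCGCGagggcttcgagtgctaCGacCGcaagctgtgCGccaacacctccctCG
Tubb5: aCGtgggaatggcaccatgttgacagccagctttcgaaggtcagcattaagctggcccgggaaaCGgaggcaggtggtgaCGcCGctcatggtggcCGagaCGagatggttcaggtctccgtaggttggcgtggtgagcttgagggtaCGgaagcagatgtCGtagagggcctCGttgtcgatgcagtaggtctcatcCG
Daxx: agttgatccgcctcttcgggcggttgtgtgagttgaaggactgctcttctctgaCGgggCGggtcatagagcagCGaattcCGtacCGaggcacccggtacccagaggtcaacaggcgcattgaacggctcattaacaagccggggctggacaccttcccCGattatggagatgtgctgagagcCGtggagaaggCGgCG
Elfn2: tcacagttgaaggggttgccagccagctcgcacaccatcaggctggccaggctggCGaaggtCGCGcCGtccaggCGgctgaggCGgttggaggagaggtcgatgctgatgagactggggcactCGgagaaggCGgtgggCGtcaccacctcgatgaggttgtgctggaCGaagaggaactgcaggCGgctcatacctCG

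The 15 capitalised CpGs of Arid1b, a subunit of the BAF chromatin remodelling complex, read 96.8% to 100% in Dnmt1+/+ and 59.1% to 97.7% in Dnmt1-/-. The 12 of Odz3, a teneurin of the neuronal surface, read 46.9% to 96.9% in Dnmt1-/-. The 19 of Hhipl1 averaged 86.0% in Dnmt1+/+ and 85.4% in Dnmt1-/-, with as few as 18 calls at a CpG in each library. In the Tubb5 window, in the coding sequence of a beta-tubulin, the 10 CpGs averaged 82.3% in Dnmt1+/+, and none read above 2% in Dnmt1-/-. The 9 CpGs of Daxx, a chaperone of histone H3.3, averaged 94.9% in Dnmt1+/+, and 0.131% in Dnmt1-/-, although some had only 10 calls there, for which a count of 0 allows a level of up to 30%. The 12 of Elfn2, a leucine-rich repeat membrane protein, averaged 84.6% and 1.63%. Neighbouring CpGs of a fragment share reads, so their values are not separate measurements.

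The members' levels were narrow in Dnmt1+/+ and broad in Dnmt1-/-. In Dnmt1+/+ the median tile was at 91.5% (quartiles 85.3% and 96.0%), and in Dnmt1-/- it was at 38.1% (quartiles 19.7% and 57.9%), with single tiles anywhere from 0.439% to 80.8%. With cut-site CpGs included, the Dnmt1-/- median was 45.1%. All calls at other CpGs together gave 88.7% in Dnmt1+/+ (95% Wilson interval 88.7% to 88.8%, 681794 calls) and 38.2% in Dnmt1-/- (38.1% to 38.3%, 755920 calls). Of the Dnmt1-/- calls, 69857 came from the single tile of Sfi1, at 19.9%, which pulls that value down. Intervals here cover counting error only, and treat calls from the same read as separate.

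Every member was lower in Dnmt1-/- than in Dnmt1+/+, by 5.63 points in the Hhipl1 tile to 94.8 points in the Eif3g tile, with a median fall of 52.9 points. A fall of 25 points or more was met by 711 members (89.8%), against 7.23% of all autosomal tiles with 20 or more CpGs, most of which had little methylation to lose. A level of 50% or more in Dnmt1-/- was kept by 280 members (35.4%), and 2.69% of all such tiles were at that level. At 20% or less were 200 members (25.3%), and 92.4% of all such tiles. With cut-site CpGs included, 344 members (43.4%) were at 50% or more and 40 (5.05%) at 20% or less. These shares follow in part from the rule, which admitted only methylated tiles, and nothing is read from the contrast with the background. At the extremes, 20 members stayed at 75% or more, of which 17 were coding-exon tiles, and 27 were at 5% or less, of which 10 were intergenic, 9 at promoters and 6 in coding exons. With cut-site CpGs included the lowest member was at 11.5%.

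**Figure D1:**
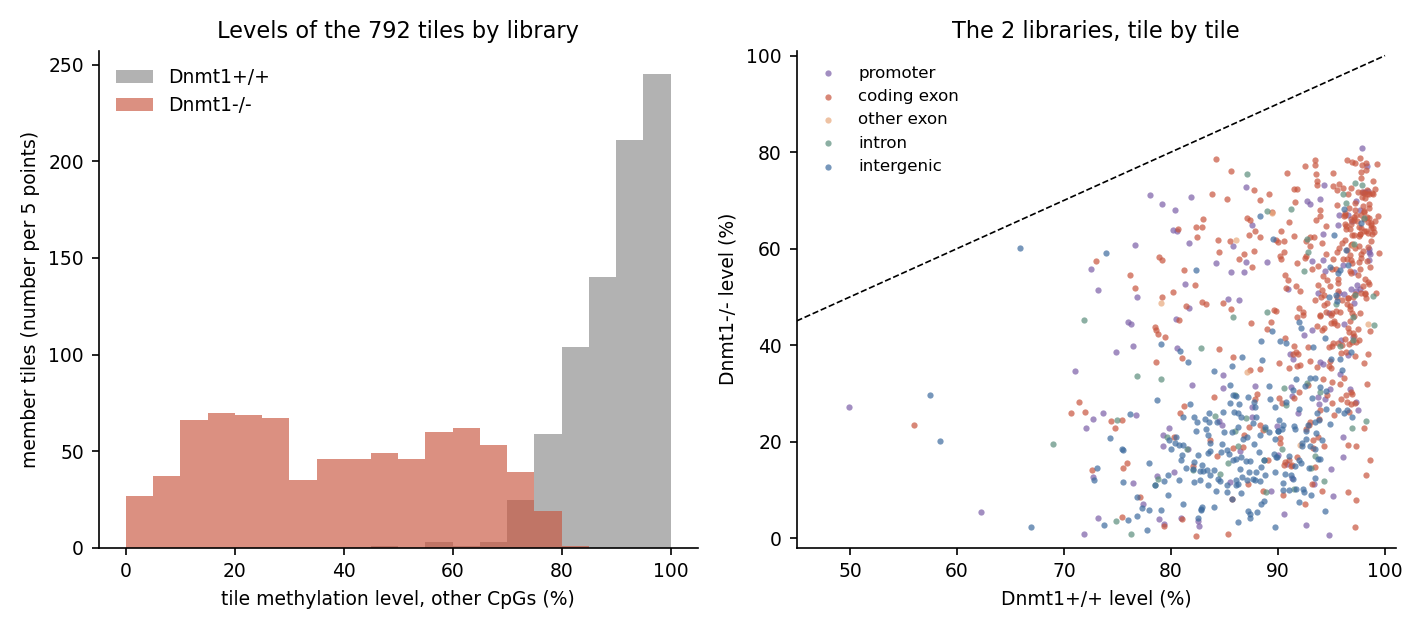
Left, the number of the 792 member tiles (vertical axis) in each 5-point step of methylation level in % (horizontal axis), for Dnmt1+/+ in grey and Dnmt1-/- in red. Right, each point is a tile, with its Dnmt1+/+ level in % on the horizontal axis and its Dnmt1-/- level in % on the vertical axis, coloured by gene position. The dashed line marks equal levels, and all points lie below it, spread from 0.439% to 80.8% in Dnmt1-/-.

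Fisher's exact test per CpG (two-sided, Benjamini-Hochberg over all CpGs of the table, called at an adjusted p under 0.05) compares the 2 libraries and not the genotypes. It called 11758 of the 14753 other CpGs of members lower in Dnmt1-/- (79.7%), and 15015 of all 20172 member CpGs (74.4%), against 43.7% of all CpGs of the table. Only 6 of the other CpGs were called higher (7 of all member CpGs), where the table's share was 0.462%. In the median member 87.5% of other CpGs were called lower, in 220 members all of them, and in 1 member none. Because the rule admitted CpGs of high Dnmt1+/+ level, these counts too are a description.

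The members did not lose methylation evenly along their length. Over the other CpGs of a tile the median standard deviation (SD) in Dnmt1-/- was 18.5 points, where binomial counting at these depths gives 7.52, and in 528 of the 792 tiles it was more than 2 times the counting value. In Dnmt1+/+ the same SD was 9.73 points against 4.82 from counting. The unevenness was widest in the 201 tiles that averaged 40 to 60% in Dnmt1-/-, where 11.2% of CpGs were still at 20% or less and 11.1% at 80% or more. Over all members, 32.9% of other CpGs were at 20% or less in Dnmt1-/- and 11.4% at 80% or more, where Dnmt1+/+ had 0.447% and 83.5%.

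**Figure D2:**
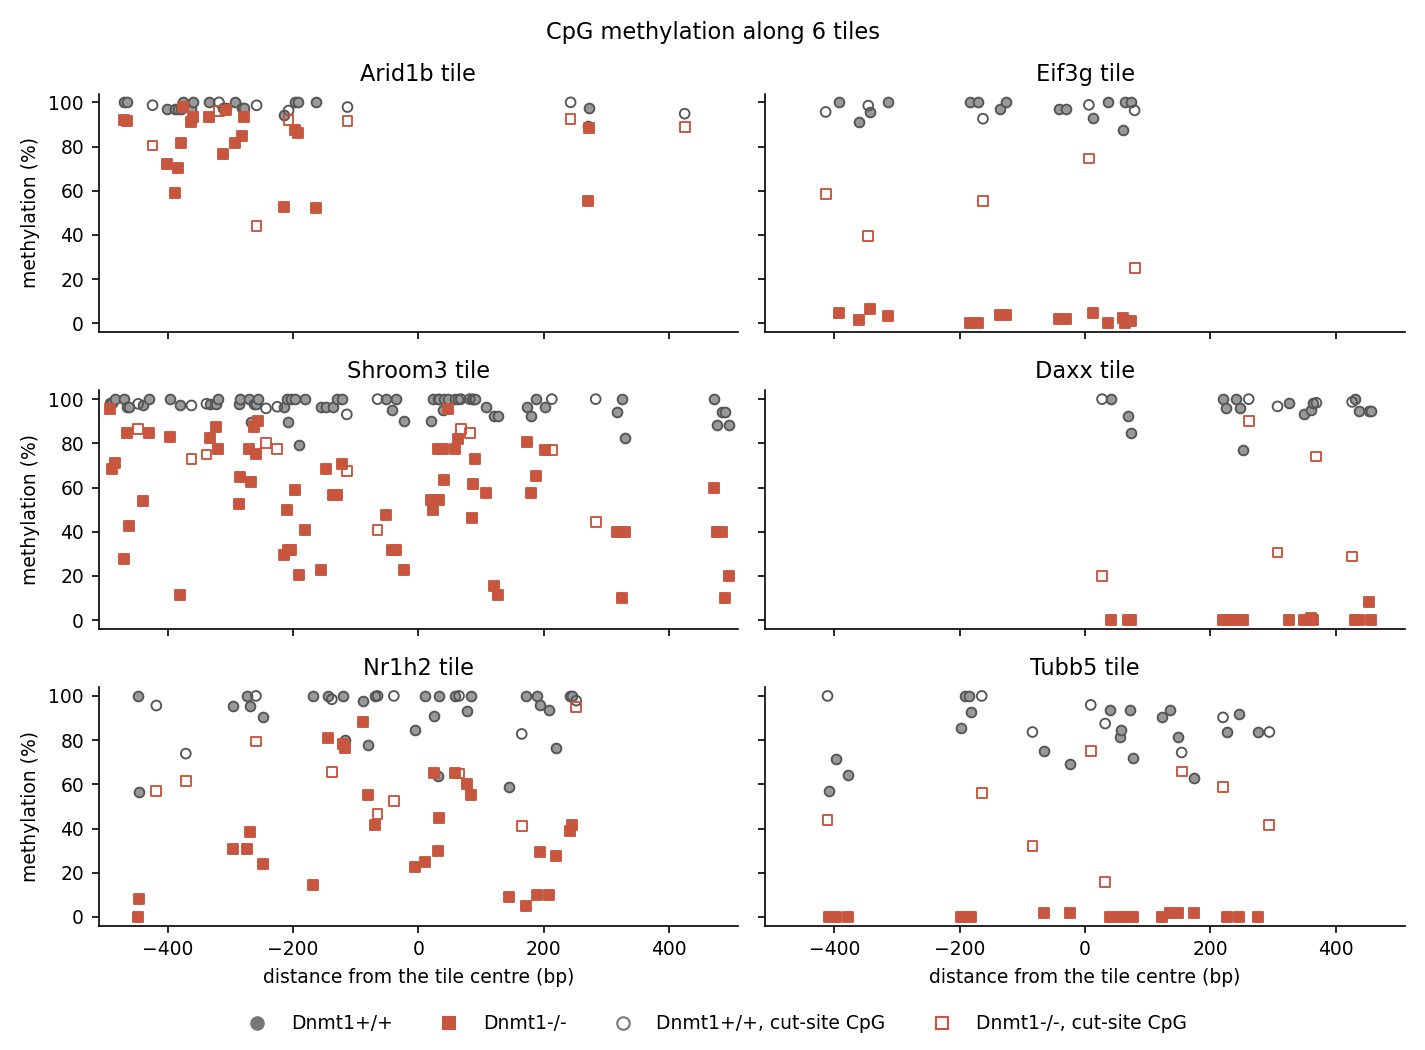
Methylation in % (vertical axis) of each measured CpG against its distance from the tile centre in bp (horizontal axis), in the tiles of Arid1b, Shroom3 and Nr1h2 on the left and of Eif3g, Daxx and Tubb5 on the right. Circles are Dnmt1+/+ and squares Dnmt1-/-, filled for other CpGs and open for cut-site CpGs. Squares scatter from 10% to 95.5% in Shroom3 and from 0 to 88.0% in Nr1h2, whereas on the right the filled squares lie at or below 8.33% with open squares above them.

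The tile with most CpGs shows this spread. It lies in the coding sequence of Shroom3, which directs apical constriction of epithelial cells, and held 74 CpGs. Its 63 other CpGs were at 96.8% on average in Dnmt1+/+ and at 55.4% in Dnmt1-/-, where they ranged from 10% to 95.5% (SD 23.8 points). The next in number of CpGs were the tile of Dact3, a regulator of Wnt signalling, with 71 CpGs and 90.6% in Dnmt1+/+ against 61.6% in Dnmt1-/-, and that of Dos, with 69 CpGs, 76.2% and 54.6%. At the median of all members stood D1Pas1, a testis-expressed RNA helicase gene, at 38.0%, Nr1h2, the oxysterol receptor LXR-beta, at 38.1%, and Fscn2, a retinal fascin that bundles actin, at 38.2%. Their CpGs spanned 19.05% to 67.6%, 0 to 88.0% and 11.8% to 67.7% in Dnmt1-/-.

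Levels in Dnmt1-/- differed by gene position, which the rule did not use. Tiles within 1 kb of a start were called promoter tiles, and the rest were assigned to coding exon, other exon, intron or intergenic in this order by overlap with GENCODE. Coding exons held 373 members in 333 genes, with a median of 51.2% in Dnmt1-/- (quartiles 36.0% and 63.7%). The 131 promoter tiles had a median of 41.0% (23.3% and 57.4%), the 7 tiles in other exons 48.7% and the 55 intronic tiles 30.3% (18.5% and 49.3%). Of the promoter tiles only 66 held a start, and 106 held coding bases, so this class is largely coding sequence near a start. The 226 intergenic tiles had the lowest median, 19.6% (12.5% and 27.1%), or 31.6% over all CpGs, where coding exons had 56.3%. At 50% or more in Dnmt1-/- were 196 of the coding-exon tiles (52.5%) and 15 of the intergenic ones (6.64%). At 20% or less were 38 (10.2%) and 116 (51.3%). The middle ranges of coding-exon and intergenic tiles did not overlap, though their whole ranges did, from 0.439% to 78.7% and from 1.76% to 68.3%. Tiles are not replicates of a genotype and all come from the same libraries, so no test was made.

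**Figure D3:**
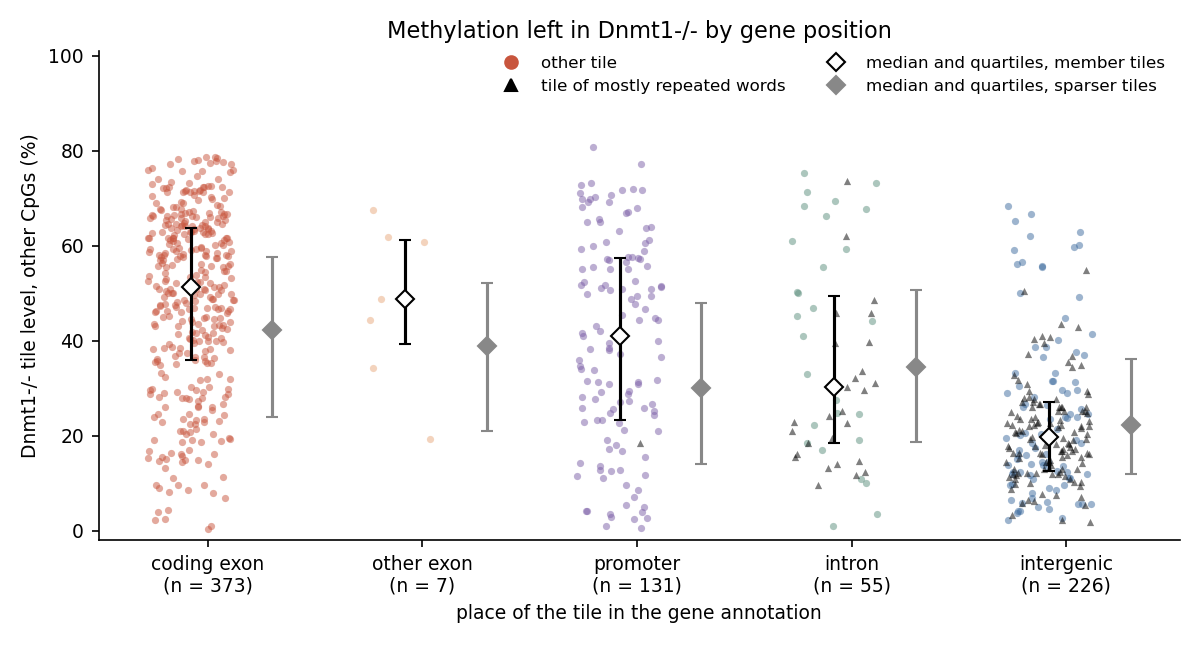
Methylation level in % of each member tile in Dnmt1-/- (vertical axis) by its place in the gene annotation (horizontal axis), with triangles for tiles of mostly repeated words. White diamonds with bars give the median and quartiles of the members and grey diamonds those of sparser methylated tiles. Members run from a median of 51.2% in coding exons down to 19.6% in intergenic tiles.

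Coding exons were also highest and intergenic sequence lowest in tiles that met the Dnmt1+/+ limit with fewer CpGs, where introns lay above promoters. Of tiles with 5 to 19 CpGs and 5 or more other CpGs, 18933 had a Dnmt1+/+ median of 80% or more. Their median in Dnmt1-/- was 30.2% (quartiles 16.1% and 48.7%), against 38.1% in the members. In coding exons it was 42.2% (5549 tiles), in other exons 38.9% (393), in introns 34.4% (3829), at promoters 29.96% (1867) and in intergenic sequence 22.4% (7295). Members were thus higher than sparser tiles in coding exons, in other exons and at promoters, and lower in intergenic sequence. In introns they were lower, at 30.3%, but higher, at 44.8%, once 27 tiles of mostly repeated sequence described further on were left out, a step not applied to the sparser tiles. With that step 94 intergenic members stayed lower, at 19.9%, but the 20 with under 10% of words found more than once were higher, at 29.7%. These are medians over tiles of the same 2 libraries, and the differences were not tested. Among sparser tiles the quartile ranges of coding exons and intergenic sequence overlapped, at 23.9% to 57.7% and 12.1% to 36.2%.

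The positions also differed in Dnmt1+/+, where coding-exon members had a median of 94.5% and intergenic members 87.2%. Within bands of Dnmt1+/+ level the gap between members in Dnmt1-/- was narrowest at the top. Below 85% in Dnmt1+/+, coding-exon members had a median of 42.0% in Dnmt1-/- (52 tiles) and intergenic ones 16.8% (80 tiles). From 85 to 90% the medians were 47.1% (39) and 17.4% (70), and from 90 to 95% they were 46.3% (105) and 22.4% (60). At 95% or more they were 58.7% (177) and 49.9%, the latter from just 16 tiles. Of these 16, 7 were of mostly repeated sequence described further on, and the other 9 had a median of 56.5%. Promoter and intronic members of this band had medians of 52.4% (35) and 50.1% (15), so intergenic tiles were not clearly lowest there. Sparser tiles ran the other way, with the gap widest at the top: their medians were 20.2% and 16.5% below 85%, 26.6% and 18.9% from 85 to 90%, 34.7% and 23.4% from 90 to 95%, and 51.6% and 35.6% at 95% or more. Quartile ranges of coding-exon and intergenic members stayed apart only below 85%, at 23.3% to 54.8% and 11.7% to 22.3%. From 85 to 90% they overlapped, at 23.3% to 62.7% and 12.2% to 26.9%. From 90 to 95% they just met, at 30.3% to 58.4% and 15.4% to 30.5%. At 95% or more they were 44.98% to 66.6% and 32.8% to 57.3%. Across the 792 members the Dnmt1-/- level rose with the Dnmt1+/+ level (Spearman's rank correlation 0.50, across tiles that share both libraries).

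**Figure D4:**
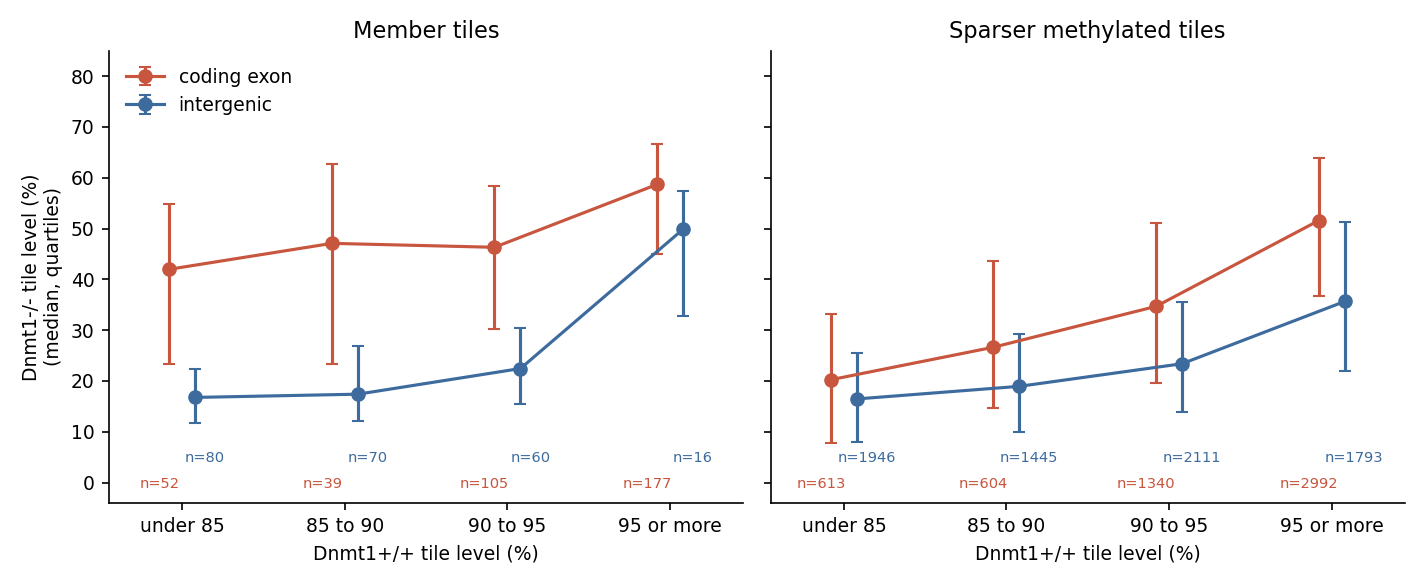
Median Dnmt1-/- level in % with quartile bars (vertical axis) in 4 bands of the Dnmt1+/+ level in % (horizontal axis), for coding-exon tiles in red and intergenic tiles in blue, with the number of tiles printed below. Left, members, whose medians differ most below 95% and lie at 58.7% and 49.9% above it. Right, sparser methylated tiles, whose medians differ most at the top, 51.6% and 35.6%.

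Within the coding-exon members, medians were higher where more of the tile was coding. The 129 tiles with under 500 coding bases had a median of 46.8% in Dnmt1-/-, the 162 with 500 to 999 had 52.4% and the 82 wholly coding ones 57.3%. Their Dnmt1+/+ medians rose too, at 93.4%, 94.9% and 96.3%, and across the 373 tiles Spearman's rank correlation of the Dnmt1-/- level was 0.14 with coding bases and 0.37 with the Dnmt1+/+ level. Along the gene, medians were 47.4%, 45.9%, 51.4% and 52.4% in successive stretches of 25% of the gene from its start. These held 19, 43, 75 and 236 tiles, so that most coding-exon members lay in the last 25% of their gene. Tiles within 1 kb of a start had been set aside as promoter tiles, and no share for coding exons in general was computed. A comparison inside tiles was possible in 45 members that held 5 or more coding and 5 or more intronic other CpGs. Coding CpGs were higher in 28 of the 45, with a median difference of 4.72 points (quartiles -6.75 and 12.4) in Dnmt1-/-, and 0.196 points in Dnmt1+/+. The difference inside tiles was therefore small beside its spread.

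Ranked by observed over expected CpG, the 264 members with the lowest ratio had a median of 30.8% in Dnmt1-/-, the middle 264 had 34.6% and the 264 with the highest ratio 49.1%. In coding exons alone these medians were 46.2%, 47.5% and 59.1%. Spearman's rank correlation with the Dnmt1-/- level was 0.18 for observed over expected CpG, 0.15 for GC share, 0.47 for coding bases and 0.17 for the number of calls (792 tiles, which share both libraries). Within the 373 coding-exon tiles it was 0.31 for observed over expected CpG, 0.14 for coding bases and -0.000165 for GC share.

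Repeated sequence made up part of the members. In 160 members 50% or more of all 24-base words occurred 10 or more times in the genome on either strand, a limit chosen after seeing the data, since the reference marks no repeats. Of them 132 were intergenic, 27 intronic and 1 at a promoter, and none was a coding-exon tile. Their median in Dnmt1-/- was 20.1% (quartiles 14.3% and 26.1%), where the other 632 had 46.0% (24.8% and 61.2%). Leaving them out raised the intronic median from 30.3% to 44.8% (28 tiles), and the intergenic median changed from 19.6% to 19.9% (94 tiles). Those 94 still had a median of 41.6% of their words at more than 1 place. Only 20 intergenic members had under 10% of such words, also a limit chosen after seeing the data, and their median was 29.7% (quartiles 12.7% and 40.5%). The 347 coding-exon members under that limit had a median of 51.2% (quartiles 36.6% and 64.2%), so the quartile ranges overlapped there. Reads from a repeated word may come from any of its copies, so the levels of these tiles can be mixtures over copies.

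The words that recurred in most members are shown because many intergenic members share them. Each is a word of 24 bases that holds a measured other CpG, with its CpGs in capitals, and each was picked for covering most tiles not covered by the word before it. The first occurs, for example, at chr1:5179444-5179467 on the + strand, the second at chr1:34474543-34474566 on the - strand and the third at chr1:119484394-119484417 on the + strand.
Word A: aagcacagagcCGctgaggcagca
Word B: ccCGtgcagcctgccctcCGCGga
Word C: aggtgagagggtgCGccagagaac

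Word A was found in 80 of the 792 members, 72 of them intergenic and 8 intronic, and 2146 times in the genome. The levels of these 80 tiles in Dnmt1-/- ran from 4.12% to 36.9% with a median of 18.8%, and the CpG of the word itself averaged 81.0% in Dnmt1+/+ and 13.3% in Dnmt1-/- over 133 measurements. Word B was found in 26 members and 1651 times in the genome. Its tiles had a median of 15.6% in Dnmt1-/- and ran from 2.24% to 56.5%, and its CpGs averaged 92.0% and 29.4% over 117 measurements. Word C, with 5857 copies in the genome, was found in 23 members, with a median of 17.7% and a highest level of 27.1%. Many tiles with these words are themselves among the 160 members of mostly repeated words, whose median was 20.1%, so nothing is read from the likeness of the medians.

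Bases next to a CpG went with its level, over and above its tile. CpGs with T at 2 bases before were 6.66 points above the level of their own tile in Dnmt1-/-, and those with A at 2 bases after were 7.12 points above it. CpGs with C at 2 bases before were 4.16 points below, and those with G at 2 bases after 4.59 points below. T before and A after are the same motif read on opposite strands, as are C before and G after. Both together gave the widest gap: the 473 CpGs in TNCGNA averaged 56.3% in Dnmt1-/-, 13.1 points above their tiles, and the 1307 CpGs in CNCGNG averaged 29.4%, 10.7 points below theirs (-10.7). In Dnmt1+/+ the same groups averaged 95.02% and 83.5%. For T before and A after, the excess was 6.81 and 7.66 points in coding-exon tiles, and 6.86 and 5.82 points in intergenic tiles. N stands for any base, each motif reads the same on both strands, and the CpGs of TCGA and CCGG were left out.

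Neighbouring members were alike. The 33 pairs of adjacent member tiles differed by a median of 5.25 points in Dnmt1-/-, the 18 pairs 2 to 5 tiles apart by 8.16 points, and the 66 pairs 6 to 50 tiles apart by 17.1 points. Pairs at any distance on a chromosome differed by 21.0 points (18385 pairs), and the 92 pairs in the same gene by 7.58 points. Adjacent tiles may share fragments. Members lay on all 19 autosomes, from 16 to 68 on each, and the median in Dnmt1-/- ran from 22.1% on chromosome 16 to 50.8% on chromosome 13.

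Genes were overlapped by 565 members, 499 genes in all, and 479 members held coding bases. Members numbered 2 or more in 48 genes and 4 or more in 3. Plec, which encodes the cytoskeletal linker plectin, held 4 wholly coding tiles at 96.2% to 98.1% in Dnmt1+/+, which were at 36.4%, 64.3%, 53.7% and 67.4% in Dnmt1-/-. Lmtk3, a membrane kinase gene, held 4 tiles at 15.2%, 42.8%, 20.8% and 22.9% in Dnmt1-/-. The annotated span of Pcdhgc5, which runs over part of the gamma-protocadherin cluster, held 6 tiles from 24.5% to 68.3%. The levels of Lmtk3 and of Plec overlapped, and in each gene some successive member tiles were within 15 points of each other and others over 20 points apart.

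The highest members in Dnmt1-/- lay in genes and had coding bases. Arid1b stood first at 80.8% (all calls together 80.9%, 95% Wilson interval 78.7% to 82.8%), against 97.9% in Dnmt1+/+. It was followed by Odz3 at 78.7%, Hhipl1 at 78.6%, the zinc finger gene Zfp865 at 78.4%, the AT-hook gene Ahdc1 at 78.3% and Bend3, whose product binds heterochromatin, at 78.0%. By all calls together the order differed: Zfp865 was above Arid1b at 83.3%, Odz3 was level with Arid1b at 80.9%, and Hhipl1 was at 75.2% (interval 73.0% to 77.3%). Ctu1, which thiolates tRNA, was at 77.8%. Etv3, an ETS-family repressor, was at 77.5% and the giant cadherin Fat1 at 77.3%. Dnmt1+/+ was at 93.4% to 99.3% in all of the named tiles but Hhipl1, where it was 84.3%. Of these only Arid1b lay within 1 kb of a start, and that tile lies 98.5% along the gene.

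The 10 lowest were more mixed in place. Over all CpGs, cut sites included, they read higher in Dnmt1-/-, for example 13.7% in Tubb5, 14.8% in Elfn2, 14.4% in Eif3g and 22.6% in Mfhas1. Tubb5 was at 0.439% in Dnmt1-/- (all calls together 0.609%, interval 0.279% to 1.32%) and 82.3% in Dnmt1+/+, with 10.8% of its words found elsewhere in the genome. Daxx was at 0.594% and 94.7%, Elfn2 at 0.912% and 85.3%, and the tile of Ncrna00085, which holds the start of Mir99b, at 0.927% and 71.8%. An intronic tile of the cell adhesion gene Ntm was at 0.961% and 76.3%. Eif3g, a subunit of a translation initiation factor, was at 2.33% against 97.2%, and Mfhas1 at 2.42% against 82.6%. The other 3 were intergenic, at 1.76%, 2.22% and 2.24%, and had 32.5% to 55.1% of their words at 10 or more copies. In none of the gene tiles did an other CpG exceed 10.3% in Dnmt1-/-.

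Gene lists, made of symbols and symbol prefixes and not complete for any class, were described by counts and medians, beside the 38.1% of all members and 35.4% at 50% or more. Zinc finger genes, which encode DNA-binding proteins, held 36 members in 30 genes with a median of 56.6%, 24 of them at 50% or more, from Zbtb7a at 9.54% to Zfp865 at 78.4%. Chromatin regulators held 10 with a median of 64.6%, from Daxx at 0.594% through the methyltransferase gene Mll2 at 42.5% and the remodeller gene Chd7 at 59.6% to Arid1b at 80.8%. Protocadherins and large cadherins held 19 with a median of 52.2%, from Pcdhb22 at 24.3% to Fat1 at 77.3%, whose 3 tiles were all above 70%. Cytoskeletal and scaffold genes held 15 with a median of 53.7%, from Myo18b, an unconventional myosin gene, at 11.3% to Ank3, which encodes ankyrin-G, at 73.1%. In coding exons, where the median over members was 51.2%, lay 31 of the 36 zinc finger tiles and 6 of the 10 tiles of chromatin regulators.

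The other lists described here had medians from 27.7% for ion channel genes to 68.1% for developmental transcription factors, the latter from 2 tiles. The ion channel list held 14 members with a median of 27.7%, from the potassium channel gene Kcnj11 at 4.18% to the calcium release channel gene Itpr3 at 69.6%, and 3 were at 50% or more. Its Dnmt1+/+ median was 87.2%. The list missed Hcn2, also an ion channel gene, whose coding-exon tile was at 52.5%. Germline genes held 6, of which 5 were at promoters, with a median of 29.6%, against 94.2% in Dnmt1+/+. Slc25a31, a testis form of the ATP carrier, was at 14.4%, the piRNA pathway gene Mael at 21.1%, the germ cell helicase gene Ddx4 at 31.2% and Hormad1, a protein of the meiotic chromosome axis, at 51.6%. Extracellular matrix genes held 7 with a median of 46.8%, from a tile in Col1a1, the main fibroblast collagen gene, at 8.66%, which lies 89.0% along the gene and counts as a promoter tile through the start of Gm17329, to the latent TGF-beta binding protein gene Ltbp3 at 71.3%. Notch, LDL receptor-related and Wnt signalling genes held 6 with a median of 41.7%, from Apc2 at 8.57% to Lrp8 at 72.2%. The list of developmental transcription factors held 2, Foxo3 at 65.1% and Lhx6 at 71.2%, and missed at least the homeobox gene Hlx at 70.2% and the zinc finger gene Egr2 at 75.5%. No member fell on the list of imprinted genes.

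**Figure D5:**
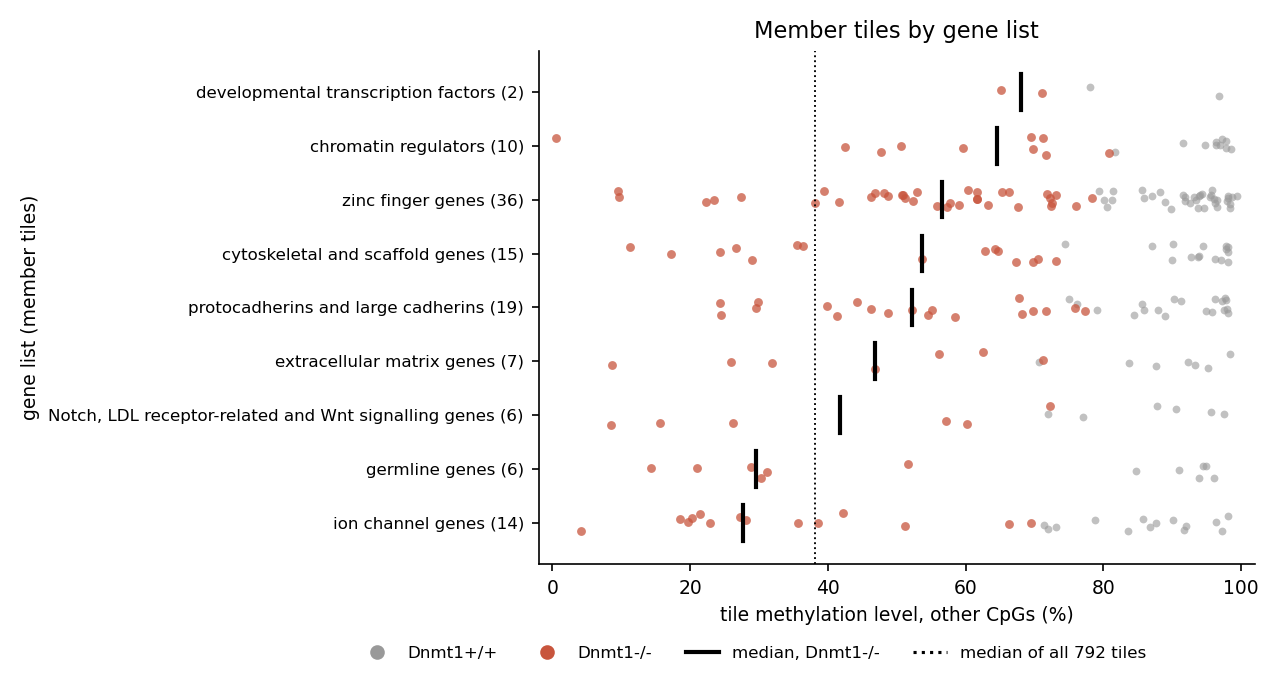
Methylation level in % of each member tile (horizontal axis) by gene list (vertical axis, with the number of member tiles), in Dnmt1+/+ in grey and Dnmt1-/- in red. Bars mark the Dnmt1-/- median of a list and the dotted line that of all members, 38.1%. Chromatin regulators have a median of 64.6% and the ion channel list 27.7%.

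At the edge of the rule, the members just inside were tiles of Trim17 and Marveld2 and an intergenic tile, each with a Dnmt1+/+ median of 80% over all CpGs, and their levels in Dnmt1-/- were 12.8%, 55.8% and 18.5%. The tiles just outside had medians of 79.9%, 79.7% and 79.5%, and were at 17.7%, 3.67% and 6.50%. Depth was uneven in a few members: the tile of Sfi1, which is covered by 69857 calls in Dnmt1-/- against a median of 678 a tile, was at 23.4%.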

How the data were processed

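RRBS libraries of Dnmt1+/+ and Dnmt1-/- MEFs, 1 of each, were compared. The authors deposited, per CpG, read counts (depth) and the methylated percent. A provider mapped the reads to mm9, Bismark is named in the submitters' processing notes with its version not given in the sources used here, and CpGs under 10 reads in either library were left out by the authors. All depths times percents came out as whole calls (tolerance 0.001 call). Positions were counted from 0 and all fell on a CG of NCBIM37. Tiles were annotated with GENCODE of the same build. Levels are means over CpGs outside CCGG and TCGA, and Fisher's exact test was tested on simulated data. Word copies were counted in the genome. Named tiles followed a rule: with 10 or more other CpGs, the 10 highest, 10 lowest and 3 nearest the median, genes with 4 tiles or more, 3 tiles on each side of the limit, 3 with most CpGs, and the ends of each gene list, with genes matched to lists by symbol. A named tile and a gene list that the rule would give are not reported here. Other names, the share of repeated words and the shared words were chosen after their values were seen. Members and lists were chosen with earlier results of these data known. Python 3.11.15, numpy 2.4.6, pandas 2.3.3 and scipy 1.17.1 were used.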

Additional observations from a re-analysis of the deposited data

How the results depend on the processing

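No paired analysis was possible because there was only 1 library of either genotype, so that no replicate could be left out either. The median Dnmt1-/- level of 38.1% became 45.1% over all CpGs, 38.4% with at least 20 calls (777 tiles left), 38.6% with calls pooled, 41.3% at a Dnmt1+/+ median of 90% or more (637 tiles), 50.7% with CpGs counted outside CCGG and TCGA (219), 52.3% with at least 30 CpGs (146), 38.5% with borders shifted by 500 bp (768) and 40.5% in 500 bp tiles (321). Without tiles of mostly repeated words, an alternative added after seeing the data, it was 46.0%. With the deepest CpGs left out it was 38.2%. Tiles at 50% or more, 280 of 792, numbered 112, 79 and 128 under the stricter CpG rule, the 30-CpG rule and 500 bp tiles, where fewer tiles entered, and 174 at a limit of 60%. Tiles at 20% or less, 200 of 792, numbered 40 over all CpGs, 133 at the 90% limit, 40, 25 and 84 under the same 3 rules, 120 without tiles of mostly repeated words and 64 at a limit of 10%. These 2 counts stayed within 1.5 times under the other settings. CpGs called lower fell from 11758 to 5154 when thinned to 10 calls, which is 34.9%, against 16.6% of all CpGs of the table.

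By position, all CpGs gave medians of 56.3% in coding exons, 56.4% in other exons, 47.3% at promoters, 38.2% in introns and 31.6% in intergenic tiles. A promoter of 500 bp either side gave 42.1% at promoters, 50.8% in coding exons and 44.4% in other exons. Without tiles of mostly repeated words promoters were at 41.3%, introns at 44.8% and intergenic tiles, many still partly repeated, at 19.9%. With under 10% of words found more than once, also added after seeing the data, intergenic tiles were at 29.7% (20 tiles), introns at 37.0% (18), promoters at 46.1% and other exons at 46.6%. Coding exons stayed above promoters, introns and intergenic tiles in these alternatives, and intergenic tiles lowest. Ranked by CpGs per tile, the lowest and highest 264 were at 31.4% and 49.9%. With each tile counted once, CpGs in TNCGNA averaged 55.1% and those in CNCGNG 28.3%.

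Depth limits single CpGs more than tiles. A split by masked repeats could not be run, since the reference is not masked. With 1 library a genotype, nothing here measures the spread between cultures.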
